A study of Homo sapiens with 6 samples.

Results

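The mRNAs described here encode the proteins of the mitochondrial ribosome, measured by RNA immunoprecipitation sequencing (RIP-seq) in WaGa, an established Merkel cell carcinoma (MCC) line that carries Merkel cell polyomavirus. They were chosen by name, as the protein-coding genes whose symbol is MRPL or MRPS followed by a number and at most 1 letter. Of 60655 genes in the count table, 78 fitted this rule, and 77 remained after *MRPL53*, which had 0 counts in all 6 libraries, was set aside. The rule used no measured value other than that 0. RNA that came down with an antibody against IGF2BP3, called IMP3 in the sample titles (IGF2BP3 IP, n = 3), was compared with RNA that came down with IgG (IgG IP, negative control, n = 3). All 6 libraries came from WaGa cells that the labels give as wild type, with no treatment. No library of total WaGa RNA was used here, so the comparison was between 2 pulldowns from 1 line.

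Mitochondria translate a small set of their own mRNAs, all for subunits of the respiratory chain and ATP synthase. Their ribosome has a large and a small subunit built on rRNAs of the mitochondrial genome, but its proteins are encoded in the nucleus, translated in the cytosol and imported. Part of these proteins descend from bacterial ribosomal proteins, and the rest were added in the mitochondrial lineage. IGF2BP3 is a cytoplasmic RNA-binding protein with RRM and KH domains that reads N6-methyladenosine, and GGAC is the core of the best known sequence context of that mark.

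Library totals ran from 9758759 to 14886414 counts on genes. In both groups replicate 1 stood apart, with a chi-square per degree of freedom of 18.2 to 21.9 against replicates 2 and 3, which differed from each other by 2.20 in the IgG IP and 3.25 in the IGF2BP3 IP. The labels do not say whether the replicates were separate cultures, so p-values measured the spread between these samples. The labelled cell type was borne out by its markers, since all 7 MCC genes on the list, among them *KRT20*, *ATOH1* and *SOX2*, passed the expression filter, with mean TPM (a level per transcript length) of 49.4 to 685. Of the fibroblast genes 1 of 5 passed, *DCN* (mean TPM 41.4), and of the leukocyte genes 0 of 5, the highest of them at a mean TPM of 0.0933.

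A stretch of 90 coding bases is shown for the 3 members whose IGF2BP3 IP libraries all lay above the IgG IP libraries, *MRPL37*, *MRPS2* and *MRPS27*, and for *MRPL33*, the lower member with the smallest p-value. Each is the stretch within 1 coding exon that holds the most GGAC, read 5′ to 3′ on the mRNA strand of the canonical transcript (GENCODE version 44, GRCh38), with GGAC in capitals.
MRPL37, chr1:54216192-54216281, plus strand, exon 6 of 7: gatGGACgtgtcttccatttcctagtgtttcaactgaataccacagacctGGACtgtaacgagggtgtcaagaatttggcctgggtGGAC
MRPS2, chr9:135501027-135501116, plus strand, exon 2 of 4: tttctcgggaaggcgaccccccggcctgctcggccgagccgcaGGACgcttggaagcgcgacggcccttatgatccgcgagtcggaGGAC
MRPS27, chr5:72238039-72238128, minus strand, exon 5 of 11: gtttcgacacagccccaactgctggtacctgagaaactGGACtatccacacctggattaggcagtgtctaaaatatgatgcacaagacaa
MRPL33, chr2:27774424-27774513, plus strand, exon 3 of 4: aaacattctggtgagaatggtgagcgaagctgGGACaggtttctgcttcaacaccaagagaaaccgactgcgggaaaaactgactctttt
The stretches held 3, 2, 1 and 1 copies. Over all 19252 stretches of this length in the coding exons of these genes, 33.1% held at least 1 copy. For at least 2 copies the share was 5.81%, and for at least 3 it was 0.431%. These shares are of any stretch, whereas those shown are each the richest of their gene. The shares therefore do not say how unusual the stretches shown are. In the whole coding region there were 8 copies in the 1269 bases of *MRPL37*, 7 in the 888 bases of *MRPS2*, 2 in the 1242 bases of *MRPS27* and 1 in the 195 bases of *MRPL33*. The most copies of any member were 12 in the 1140 bases of *MRPL38*, followed by 10 in the 768 bases of *MRPL28*. Their log2 fold changes of IGF2BP3 IP over IgG IP were -0.01 (95% interval -1.19 to 1.18) and -0.31 (-0.79 to 0.17). *MRPL38* had only 7 to 16 counts per library, so its value cannot show whether it was higher or lower in the IGF2BP3 IP. The interval of *MRPL28* spanned 0 but stayed under 1.5-fold on the upper side. Between GGAC per kilobase of transcript and log2 fold change, the Spearman correlation was 0.13 over 76 members and 0.30 over 14479 genes. GGAC itself adds to GC content, whose correlation with log2 fold change was 0.36 and 0.41 over the same sets. The part of each was not tested. A match is a description of sequence and not a site of binding or methylation. Only the mRNA strand was searched.

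Of the 77 mRNAs, 76 passed the filter on low counts (filterByExpr of edgeR) and were tested among 14507 genes. A gene was called where edgeR's quasi-likelihood test gave an adjusted p (Benjamini-Hochberg over all tested genes) under 0.05 and the groups differed by 1.5-fold or more. *MRPL37* was the 1 member called higher in the IGF2BP3 IP, where 1.16% of all tested genes were called higher. No member was called lower, and the share of all genes called lower was 0%. At an unadjusted p under 0.05, 2 members were higher and 4 were lower, beside 9.72% and 3.1% of all tested genes. Most of the family lay close to equal levels in both pulldowns. For 57 of the 76 members the 95% interval of the fold change stayed within 1.5-fold either way, beside 53.7% of all tested genes. For 68 it stayed under 1.5-fold on the upper side, beside 9514 of all 14507 tested genes. The members' median TPM was 72.0, beside 9.81 for all tested genes. Intervals are narrower with more counts, so these interval counts are not like for like with those of all genes.

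**Figure D1:**
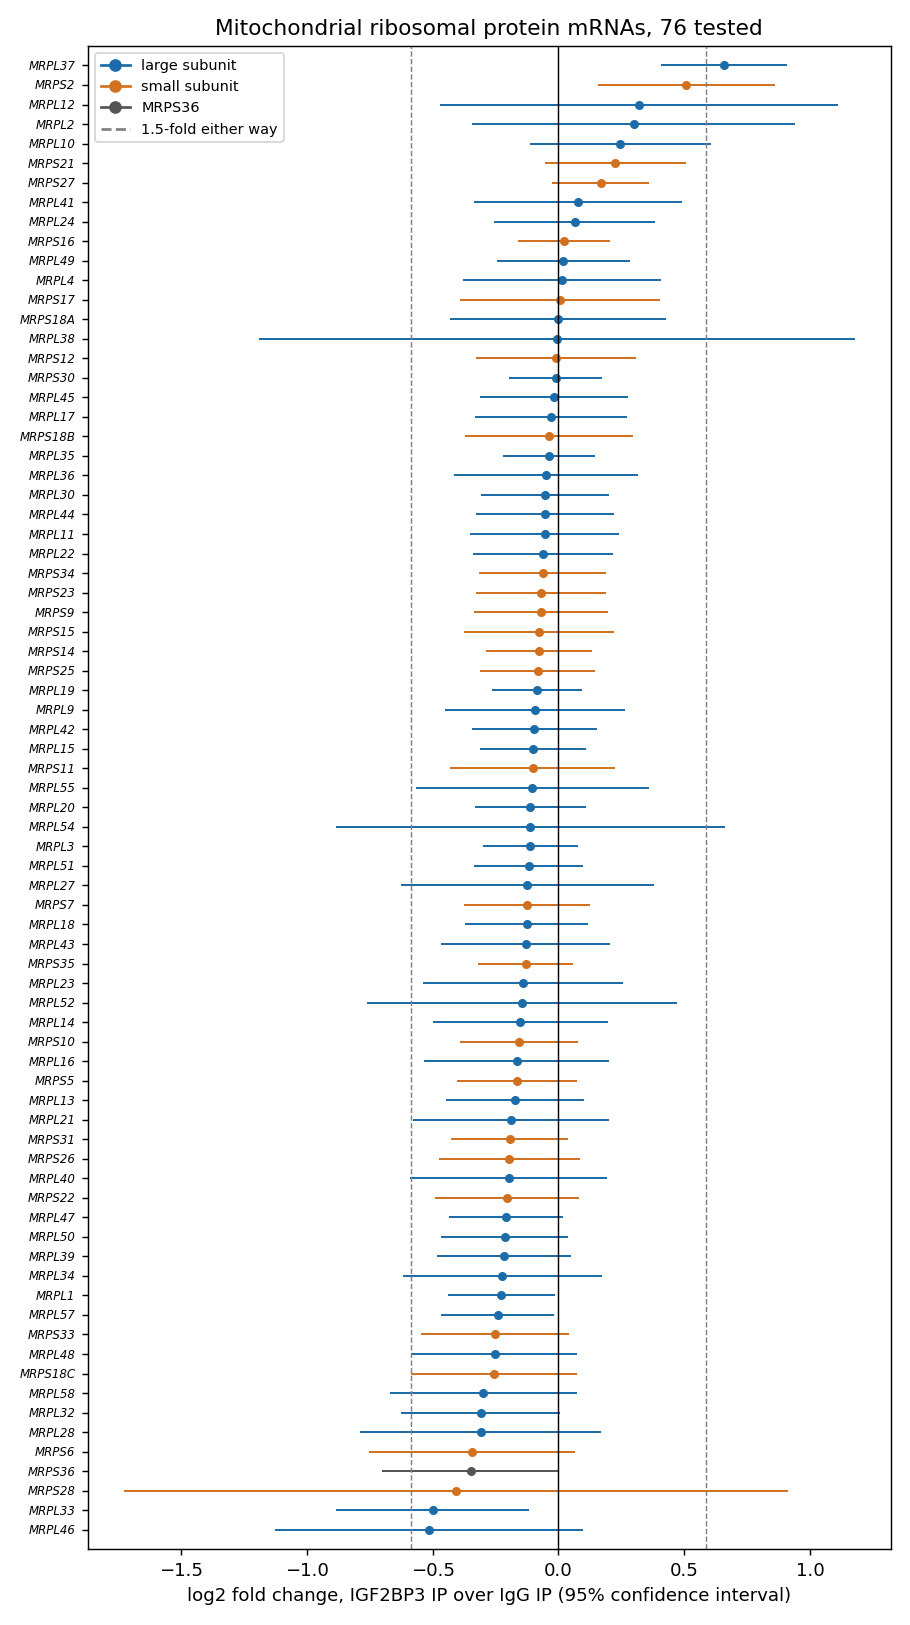
Fitted log2 fold change of IGF2BP3 IP over IgG IP for the 76 members tested, one row each, with 95% confidence intervals as bars and 1.5-fold either way as dashed lines. *MRPL37* at the top reached 0.66, *MRPL46* at the bottom had -0.52, and 63 of the 76 points lay below 0.

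*MRPL37* encodes a large subunit protein with no bacterial counterpart. It lies at chr1:54184041-54225464 on the plus strand and has 7 exons. Its normalized CPM (counts scaled to a common library size after TMM) were 22.2, 21.0 and 20.4 in the IgG IP against 34.9, 34.8 and 30.6 in the IGF2BP3 IP, in the order of replicates 1 to 3, as for all values by library. The groups did not overlap, and the gap between them was wider than the spread within either. The log2 fold change was 0.66 ± 0.11 (SE, n = 3 against 3), or 1.58-fold, with an adjusted p of 0.028. The raw counts behind it were 205, 314 and 253 in the IgG IP against 416, 461 and 377 in the IGF2BP3 IP. Within the same-numbered pairs the log2 difference was 0.65, 0.72 and 0.58. The log2 fold change kept its direction in every setting tried, between 0.52 and 0.79, but the call was lost with a correction for GC content (0.52, adjusted p = 0.11) and with limma-trend on log2(TPM + 1) (0.76, adjusted p = 0.60), a fit that called 0 genes in all. It was also lost on leaving out replicate 2 or 3 of either group (0.62 to 0.70, adjusted p = 0.11 to 0.18), where 0 to 23 genes were called in all. It was kept with DESeq2 (adjusted p = 0.00049) and with both replicate 1 libraries left out (0.66, adjusted p = 0.00021). Over all alternative settings the call was kept in 14 and lost in 11, so it depended on the setting. The 14 include the main fit with no fold change minimum, which could not lose the call. Fits with fewer libraries also have less power, so their losses do not show a dependence on any single library.

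The next members by p-value did not pass the threshold. *MRPS2*, a small subunit protein with a bacterial homologue, had CPM of 12.1, 10.5 and 9.84 in the IgG IP against 17.4, 13.3 and 15.4 in the IGF2BP3 IP. Every IGF2BP3 IP library was above every IgG IP library. Its log2 fold change was 0.51 ± 0.15 (adjusted p = 0.19). *MRPS27*, a small subunit protein of the pentatricopeptide repeat family, had CPM of 99.2, 91.3 and 94.5 against 114, 100 and 106, which also did not overlap. Its log2 fold change was only 0.17 ± 0.08 (adjusted p = 0.45). These and *MRPL37* were the 3 members of 76 whose IGF2BP3 IP libraries all lay above the IgG IP libraries, where 12% of all tested genes did so. With 3 libraries against 3 the exact two-sided permutation test cannot go below p = 0.10, and each of them had that value.

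On the other side, 10 of 76 members had every IGF2BP3 IP library below every IgG IP library, beside 8.69% of all tested genes. *MRPL33*, the homologue of bacterial L33, had CPM of 193, 129 and 117 in the IgG IP against 104, 101 and 104 in the IGF2BP3 IP. The IGF2BP3 IP libraries were nearly equal, while IgG IP replicate 1 was far above replicates 2 and 3. The log2 fold change was -0.50 ± 0.17 (adjusted p = 0.24), and -0.25 without IgG IP replicate 1. *MRPL57*, a small mitochondria-specific protein of the large subunit, had CPM of 120, 112 and 102 against 100, 84.9 and 96.6. *MRPL1*, the homologue of the bacterial L1 stalk protein, had 80.1, 75.0 and 70.0 against 59.4, 67.4 and 65.4. In both genes the highest library was IgG IP replicate 1, and the nearest libraries of the groups lay close together. Their log2 fold changes were -0.24 ± 0.10 (adjusted p = 0.34) and -0.23 ± 0.09 (adjusted p = 0.35).

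*MRPS36* was named as a small subunit protein but is now known as a component of the 2-oxoglutarate dehydrogenase complex. Its CPM were 85.4, 71.3 and 67.1 in the IgG IP against 45.3, 63.7 and 66.3 in the IGF2BP3 IP, with IGF2BP3 IP replicate 1 lowest and the nearest libraries almost equal. The log2 fold change was -0.35 ± 0.15 (adjusted p = 0.39). *MRPL32*, the homologue of bacterial L32 that is cut by the m-AAA protease before assembly, had CPM of 166, 115 and 120 against 114, 105 and 104. *MRPL47*, the homologue of bacterial L29, had 225, 180 and 182 against 169, 168 and 170. *MRPS33*, a mitochondria-specific small subunit protein, had 168, 123 and 122 against 122, 108 and 116. In all 3 genes IgG IP replicate 1 stood well above the other 5 libraries. Their log2 fold changes were -0.31, -0.21 and -0.25, with adjusted p of 0.39, 0.43 and 0.47.

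**Figure D2:**
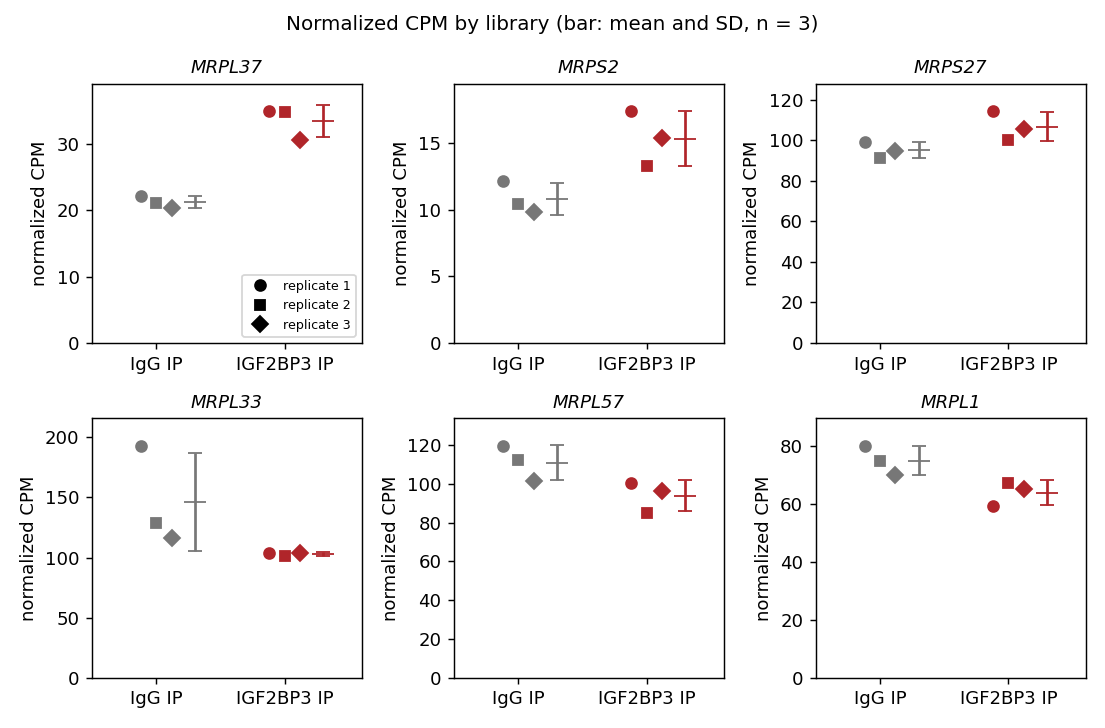
Normalized CPM of 6 members in each library, with replicate numbers as symbols and the mean and SD (n = 3) as bars, on axes that start at 0. In *MRPL37*, *MRPS2* and *MRPS27* the IGF2BP3 IP libraries lay above the IgG IP libraries and in *MRPL33*, *MRPL57* and *MRPL1* below them, with IgG IP replicate 1 of *MRPL33* at 193.

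As a family, the members leaned slightly to the IgG IP. Their log2 fold changes had a median of -0.11 with quartiles of -0.20 and -0.04, beside a median of -0.01 over all tested genes, and 63 of 76 (82.9%) were below 0, beside 51.1%. The whole range ran from -0.52 (*MRPL46*) to 0.66 (*MRPL37*). The lean was not even over the libraries. Relative to its own mean over the 6 libraries, the median member stood at 0.27 on the log2 scale in IgG IP replicate 1, at -0.03 and -0.06 in the other IgG IP libraries, and at 0.04, -0.13 and -0.05 in the IGF2BP3 IP. Over all tested genes these medians were between -0.00 and 0.02. Without IgG IP replicate 1 the median log2 fold change of the members was 0.00, while without any other single library it was between -0.16 and -0.09. Since replicate 1 stood apart in both groups, both its libraries were also left out together, and the median was then -0.06, with 56 of 75 members below 0. Without both libraries of replicate 2 it was -0.10 and of replicate 3 -0.16.

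**Figure D3:**
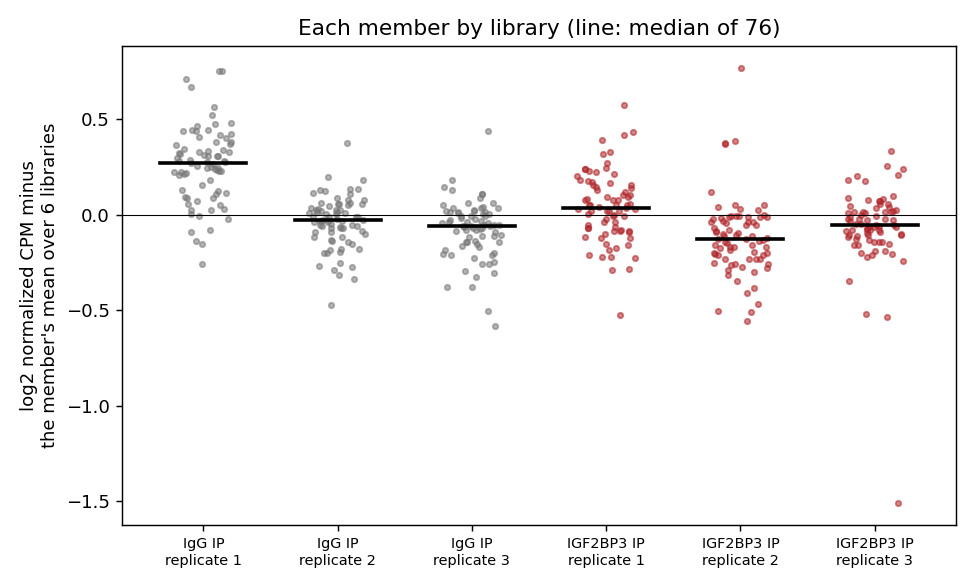
Log2 normalized CPM of each of the 76 members minus its own mean over 6 libraries, one column per library, with the median as a line. The median was 0.27 in IgG IP replicate 1 and between -0.13 and 0.04 in the other 5 libraries.

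The lean also differed between the same-numbered pairs. In pair 1 the IGF2BP3 IP was lower for 66 members and higher for 10, with a median log2 difference of -0.23. In pair 2 it was lower for 56 and higher for 20, with a median of -0.11, and in pair 3 it was lower for 38 and higher for 38, with a median of -0.00. All 3 pairs were lower for 25 members, where 23.5% of all tested genes were, and all 3 were higher for 5, where 25.1% of all tested genes were. With the replicate number as a block and no fold change minimum, edgeR gave an adjusted p under 0.05 to 3 members on the higher side and 14 on the lower side, beside 10.9% and 5.23% of all tested genes. The higher ones were *MRPL37*, *MRPS2* (adjusted p = 0.0059) and *MRPS21*, the homologue of bacterial S21 (log2 fold change 0.23, adjusted p = 0.028). Among the lower ones were *MRPL33* (-0.47, adjusted p = 0.00035), *MRPL32* (-0.29, adjusted p = 0.0051), *MRPL48* (-0.26, adjusted p = 0.0097) and *MRPL58* (-0.30, adjusted p = 0.016), a peptidyl-tRNA hydrolase that is part of the large subunit. None of the 14 reached 1.5-fold, so with the fold change minimum the block left 1 call and it was again *MRPL37*. In *MRPL33* the log2 differences of pairs 1 to 3 were -0.89, -0.35 and -0.17.

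The lean was seen in both subunits, and no difference between them was tested. The 50 large subunit members had a median log2 fold change of -0.11 with 42 below 0, and the 25 tested small subunit members one of -0.08 with 20 below 0. By origin, 46 homologues of bacterial proteins had a median of -0.10 and 28 mitochondria-specific proteins one of -0.12. The interval of the fold change stayed within 1.5-fold for 35 of 50 and 22 of 25. All 77 members together took 0.672%, 0.597% and 0.585% of all IgG IP counts, against 0.611%, 0.560% and 0.589% of all IGF2BP3 IP counts. The groups overlapped, with means of 0.618 ± 0.0473 and 0.587 ± 0.0256 (SD, n = 3, exact two-sided permutation p = 0.50). By TPM the share was 0.765 ± 0.0514 against 0.750 ± 0.0807 (exact permutation p = 0.80).

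*MRPS18A*, *MRPS18B* and *MRPS18C* encode 3 homologues of 1 bacterial protein, S18, the first of which sits in the large subunit despite its name. CPM of *MRPS18A* were 13.1, 10.8 and 8.71 in the IgG IP against 12.7, 9.59 and 10.2 in the IGF2BP3 IP. CPM of *MRPS18B* were 72.6, 56.4 and 58.8 against 72.5, 51.1 and 59.2. CPM of *MRPS18C* were 148, 98.9 and 108 against 107, 93.4 and 96.2. In all 3 genes the groups overlapped, and the log2 fold changes were -0.00, -0.04 and -0.26, with intervals that spanned 0. The sign of *MRPS18A* and *MRPS18B* turned when libraries were scaled by their totals alone (0.04 and 0.01). *MRPS18A* shared 60.6% of its exon bases with another gene on the opposite strand and *MRPS18C* 83.6%, and no source says whether the counting used the strand. *MRPS30*, also a large subunit protein in spite of its symbol, had CPM of 116, 112 and 115 against 121, 113 and 106, a log2 fold change of -0.01 with an interval from -0.19 to 0.17.

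The levels of the members, compared per length, spanned a wide range. Mean TPM over the 6 libraries had a median of 72.0. It was highest for *MRPL33* (638), *MRPL51* (421) and *MRPL42* (368), all large subunit proteins. It was lowest for *MRPL38* (7.19), *MRPL28* (10.4), the homologue of bacterial L28, and *MRPS2* (11.8). TPM of *MRPL33* were 765, 721 and 663 in the IgG IP against 463, 615 and 600 in the IGF2BP3 IP, so on this scale too the groups did not overlap. The log2 fold change of *MRPL51* was -0.12 and that of *MRPL42* was -0.10, with groups that overlapped. *MRPL28* had -0.31 with an interval from -0.79 to 0.17.

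For some members the counts and the TPM, both deposited by the authors, did not describe the same amount of RNA. From TPM and transcript length, set so that the median gene is at 100%, *MRPS24* had 2.24% of the counts expected, *MRPS28* 2.78%, *MRPL46* 8.61%, *MRPL2* 9.17%, *MRPL38* 13.8% and *MRPL12* 15.2%. In each of them at least 50% of the exon bases are also exons of another gene on the same strand, from 52.1% in *MRPL2* to 94.3% in *MRPL38*. *MRPL53*, with 0 counts and a mean TPM of 38.0, shares 99.2%. One member with such sharing, *MRPS5*, was not under 50% of the expected counts. The gene that shares its exons is annotated in GENCODE 44 but had no entry in the count table. *MRPS5* is therefore not a like case. In all, 16 of the 78 genes were under 50% of the expected counts or at 0, and 10.2% of 11050 genes were under the same limit. Those 11050 genes had all passed the filter on low counts, while *MRPL53* and *MRPS24* had not, so the shares are not like for like. The other low members, among them *MRPL22*, *MRPL42*, *MRPS33* and *MRPS23*, share under 30% of their exon bases, and whether the canonical transcript gives their right length was not tested.

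**Figure D4:**
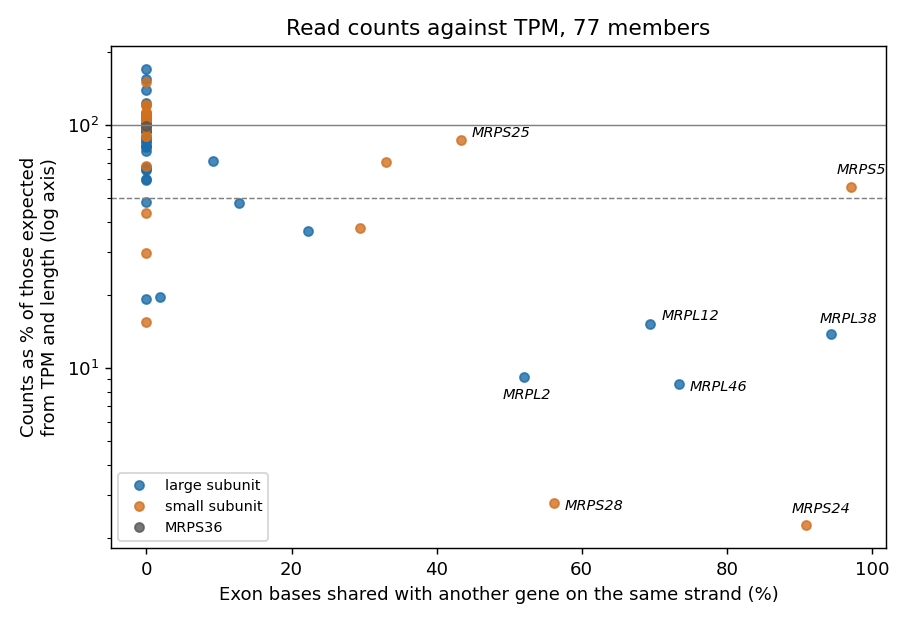
Counts as a percentage of those expected from TPM and transcript length (log axis) against the percentage of exon bases shared with another gene on the same strand, for the 77 members. *MRPS24*, *MRPS28*, *MRPL46*, *MRPL2*, *MRPL38* and *MRPL12* lay between 2.24% and 15.2% on the vertical axis with more than 50% of their bases shared. The dashed line marks 50% of the expected counts. The gene that shares exons with *MRPS5* had no entry in the count table.

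The fold changes of these members had wide intervals. *MRPL46*, a mitochondria-specific large subunit protein, had the lowest log2 fold change, -0.52, but with an interval from -1.12 to 0.09 and CPM of 2.93, 2.48 and 3.31 against 1.93, 2.49 and 1.63. *MRPS28* had -0.41 with an interval from -1.73 to 0.91, on 3 to 24 counts per library, and *MRPL38* had -0.01 (-1.19 to 1.18). *MRPL12*, the homologue of the bacterial stalk protein L7/L12, had 0.32 (-0.47 to 1.11), and *MRPL2*, the homologue of bacterial L2, had 0.30 (-0.34 to 0.94). By TPM *MRPL46*, *MRPS28*, *MRPL12* and *MRPL2* were at -0.11, -0.01, 0.19 and -0.01 on the log2(TPM + 1) scale, and *MRPL38* was at -0.38. *MRPS24*, the homologue of bacterial S3, was not tested, with 5, 2 and 0 counts in the IgG IP against 7, 2 and 1 in the IGF2BP3 IP. Its TPM were 28.2, 26.4 and 29.6 against 30.4, 27.6 and 26.5, which overlapped. TPM of *MRPL53* were 27.4, 37.9 and 43.4 against 40.8, 39.3 and 39.1, which overlapped as well. Neither passed the test on TPM (limma-trend, adjusted p = 1.00 for both).

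Log2 fold changes of the members were higher with higher GC content of the transcript, as those of all genes were. Over 76 members the Spearman correlation between the 2 was 0.36, and over 14479 genes it was 0.41. Genes share their libraries and are not independent replicates, so these are descriptions. For transcripts under 40% GC the median was -0.19 for 10 members and -0.12 for all genes, and from 55% to 60% GC it was -0.01 for 8 members and 0.12 for all genes. The members' median was lower than that of all genes in each of the 6 GC bins. *MRPL37* (55.8% GC) and *MRPS2* (59.7% GC) lie toward the upper end, *MRPL33* (41.3% GC) and *MRPS36* (34.8% GC) toward the lower. The members' transcripts were short, with a median length of 1288 bases beside 3018 for all genes, while the median GC content (48.0% against 47.7%) and the number of GGAC per kilobase (3.48 against 3.51) were close. The part of GC content in the fold changes was not tested beyond the corrected fit, in which the members' median was -0.14. Log2 fold changes were also higher with longer transcripts by rank, with a Spearman correlation of 0.23 over 76 members and 0.20 over 14479 genes. The Pearson correlations were 0.04 and 0.15. With mean TPM the members' Spearman correlation was -0.38, and it was not computed over all genes. With the length correction members moved either way, *MRPL33* from -0.50 to -0.37 and *MRPL42* from -0.10 to -0.25. The parts of length and of TPM level were not tested further.

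**Figure D5:**
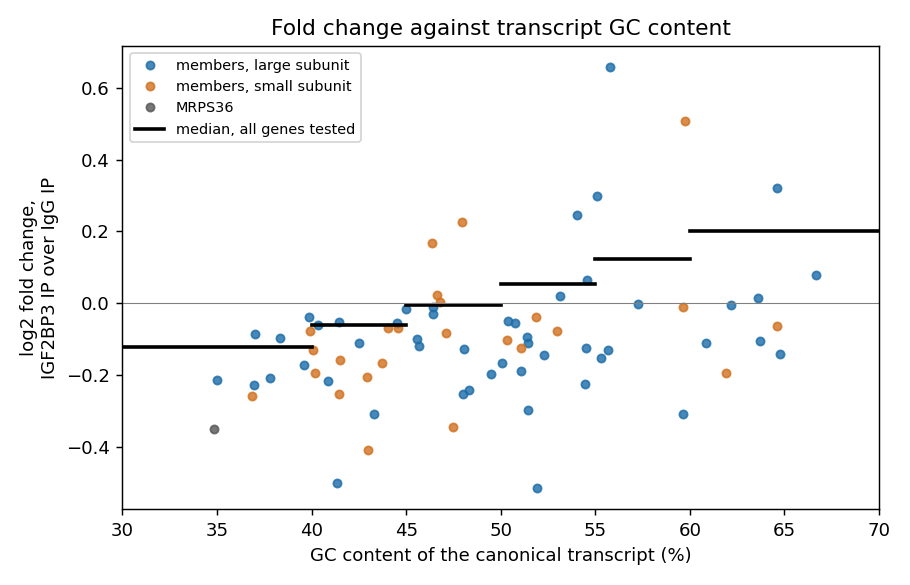
Log2 fold change of IGF2BP3 IP over IgG IP against the GC content of the transcript for the 76 members, beside the medians of all tested genes in GC bins, the outer bins being drawn to the edge of the plot. The bin medians of all genes ran from -0.12 to 0.20, and *MRPL37* at 55.8% GC lay at 0.66.

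The other genes of the pathway held no called gene. Of 5 mitoribosomal proteins with other symbols, such as *DAP3* and *PTCD3*, 0 were called in either direction, and their median log2 fold change was -0.07. Of 14 mitochondrial translation factors 0 were called and the median was -0.10, with 11 below 0. Among them *SLIRP*, which binds mitochondrial mRNAs, had -0.31 (adjusted p = 0.37). Of 23 mitoribosome assembly factors tested 0 were called and the median was -0.04, and the smallest p belonged to *MPV17L2* (0.56 ± 0.15, adjusted p = 0.11). Of 17 mitochondrial aminoacyl-tRNA synthetases 0 were called and the median was -0.01.

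The mRNAs that the mitochondrial ribosome translates were also tested. Of 12 mRNAs encoded in the mitochondrial genome 0 were called, though all 12 were below 0, with a median of -0.16. The lean of the median lay mainly in replicate 1. In pair 1 the IGF2BP3 IP was lower for 11 of the 12, with a median log2 difference of -0.52, in pair 2 for 7 (-0.01) and in pair 3 for 5 (0.04). With both replicate 1 libraries left out the median log2 fold change was 0.02, with 5 of 12 below 0. Still, 4 of the 12 were lower in all 3 pairs, beside 23.5% of all tested genes. With the replicate block and no fold change minimum, 0 were higher and 4 lower, beside 10.9% and 5.23% of all tested genes. *MT-ATP6*, a subunit of ATP synthase, had -0.37 (adjusted p = 0.27) and *MT-ND3*, a subunit of complex I, had -0.53 (adjusted p = 0.42), with CPM of 436, 248 and 210 in the IgG IP against 241, 173 and 204. The mitochondrial rRNAs had -0.11 (*MT-RNR2*) and -0.03 (*MT-RNR1*). The mRNAs of the cytosolic ribosome, the closest like family, gave 0 calls among 84 tested, a median of -0.13 and 63 below 0. With the replicate block and no fold change minimum, 8 of the 84 were higher and 28 lower, beside 10.9% and 5.23% of all tested genes. They took 6.77%, 4.59% and 4.58% of all IgG IP counts, against 6.11%, 4.24% and 4.60% of all IGF2BP3 IP counts, so here too replicate 1 was the highest of its group. The difference between the families was not tested.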

How the data were processed

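The authors mapped paired-end 150 bp reads to GRCh38 (STAR 2.7.9a) and used RSEM with the GENCODE 37 annotation. For each gene and library they deposited raw read counts and TPM values, which are normalized to length. The FPKM values they deposited were not used for any result printed here. The program that made the counts, and whether it used the strand, are not given in the sources used here. From the counts, 14507 genes passed filterByExpr, libraries were scaled by TMM, and condition alone was fitted in edgeR 4.0.16 (quasi-likelihood, R 4.3.3). Fold changes, standard errors and intervals are on the log2 scale of that fit. Library totals of 9758759 to 14886414 counts limit the precision of members with few counts. Simulated data with 200 changed genes gave back 90% of those changed 2-fold and 99% of those changed 4-fold, with 3 false calls. The simulation gave every gene the same dispersion and held no shift of replicate 1. Its rates therefore do not carry over to the real libraries, where replicate 1 stood apart. Exact permutation tests of single members and of shares were two-sided.

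Alternatives were DESeq2 1.42.0, other scaling factors, other filters, limma 3.58.1 (voom, and trend on log2(TPM + 1) or log2(TPM + 0.1)), loess corrections (span 0.5) for GC content and transcript length, no fold change minimum, a replicate block, and leaving out each library. The fit on TPM over genes kept by TPM, the block with no fold change minimum, and leaving out both libraries of a number were chosen after seeing the data. Deviations from the group means were correlated within same-numbered pairs, at 0.57, 0.28 and 0.23 for numbers 1 to 3, while the crossed pairs of replicates 2 and 3 gave 0.28 and 0.27, so the pairing mainly sets replicate 1 apart. Exons, GC content and sequences are those of canonical transcripts in GENCODE 44, in which 60481 of 60655 identifiers were found. The members and the gene lists were chosen with earlier results of these data known. Named members were those past the threshold, the 10 smallest p-values, the 3 highest and 3 lowest fold changes and levels, the *MRPS18* genes, *MRPS30*, *MRPS36*, those not tested and those low in counts for their TPM, with at most 4 genes per other list. *MRPS21*, *MRPL48*, *MRPL58* and *MRPS5* were named after their values were seen.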

Additional observations from a re-analysis of the deposited data

How the results depend on the processing

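The count of members called lower was 0 in every setting with a fold change minimum. The median log2 fold change of the members ran between -0.16 and 0.00, beside -0.108 in the main fit. It moved by no more than the SD of the 3 pair medians, 0.115. That SD is larger than the lean itself, so this limit cannot show that the lean held. Without IgG IP replicate 1 the lean was gone (0.00), and without both replicate 1 libraries the median was -0.06, with 56 of 75 members below 0. The count called higher was 1 by edgeR and 0 with limma-trend on log2(TPM + 1), with or without genes kept by TPM, on log2(TPM + 0.1), and after GC correction, whether or not a replicate block was added. Both fits on TPM over the filtered genes called 0 genes in all, the one over genes kept by TPM 3, and the GC-corrected fit 79, so the fits on TPM say little about any one gene. Leaving out 1 library, or both of 1 number, gave 0 to 1. The replicate block with the fold change minimum gave 1 higher and 0 lower, and with no fold change minimum 3 higher and 14 lower. It changed no other call. Some signs turned. With library totals they turned for *MRPS30* (0.0298), *MRPS18B* (0.00702), *MRPS18A* (0.0416) and *MRPL38* (0.0385). With limma-voom *MRPS18A* gave 0.0138 and *MRPL38* 0.0752. With limma-trend on log2(TPM + 1), in both gene sets, *MRPS30* gave 0.0421, *MRPL2* -0.0121, *MRPS18A* 0.104 and *MRPL51* 0.0277, and on log2(TPM + 0.1) they gave 0.0429, -0.0122, 0.111 and 0.0278. *MRPL42* gave 0.00333 with the GC correction and 0.00700 with the replicate block added. With the length correction *MRPS18A* gave 0.0348 and *MRPL38* 0.0289, with the block added 0.0324 and 0.0300, and the block alone gave 0.000600 for *MRPL38*. Leaving out 1 library or both of 1 number, *MRPL12* ran from -0.000863 to 0.774, *MRPS30* from -0.0620 to 0.0272, *MRPS18A* from -0.134 to 0.145, *MRPS18B* from -0.180 to 0.0821, *MRPL42* from -0.163 to 0.0233, *MRPL38* from -0.535 to 0.492 and *MRPS28* from -1.26 to 0.0211. The causes were not tested. The share of the counts on members, IGF2BP3 IP over IgG IP, was 0.949, and 0.980 by TPM. *MRPL38*, *MRPS28* and *MRPS24* had few counts for their TPM, which limits what the count test can show for them.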

Other observations

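The count table lists 79 pseudogenes named after them, of which 18 had any count. Together they held 103 to 160 counts per library, beside 65595 to 88900 on the 77 members. The most counted was *MRPL45P2*, with 58, 80 and 47 counts in the IgG IP against 72, 57 and 48 in the IGF2BP3 IP, which overlapped.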
